A study of Mus musculus with 12 samples.

Results

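The Bcl2 family decides whether a cell keeps or opens its mitochondria on the way to apoptosis, and 10 of its genes were followed here in the growing mouse mammary gland: the pro-survival genes Bcl2, Bcl2l1 and Mcl1, and the pro-death genes Bax, Bak1, Bcl2l11, Bid, Bad, Bmf and Bnip3. Every probe carrying one of these symbols in the platform annotation was taken, whatever it showed. The genes themselves were chosen with earlier results of these data known. That gave 9 probes of 17589 in the table, 1 each for 9 of the 10 genes. Bax was not analysed here.

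Terminal end buds, the bulbous tips that drive the ductal tree into the fat pad, were microdissected from mammary glands of 5 week old mice and hybridised on 6 arrays. Mature ducts, also from 5 week old mice, were hybridised on another 6. On all 12 arrays the second channel held distal stroma, the part of the fat pad that the epithelium had not reached, so that every value is a log2 ratio of epithelium (Cy5) over stroma (Cy3). The glands were those of B-actin-GFP mice, dissected by their fluorescence; the sources used here do not give strain, number of animals or pooling. A ratio of 0 is the level in stroma, and the ratios are taken as log2 although the sources used here do not state the base. If they were natural logarithms, folds would be larger and the signs, ranks and p-values from limma would be the same. Levels of different genes cannot be set against each other on this scale.

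Pro-survival members of the family hold the effectors Bax and Bak1 in check at the outer mitochondrial membrane. BH3-only members, named after the short helix by which they bind their relatives, report damage, loss of matrix contact or loss of growth factors, either by occupying the pro-survival proteins or by acting on the effectors. Freed effectors form pores that release cytochrome c, which joins Apaf1 to switch on caspase 9. In the mammary gland this route is known for hollowing the terminal end bud: its inner body cells die while the outer cap and duct-forming cells live, and in mice lacking Bcl2l11 the lumen stays filled for a time. In cultured human mammary cells both Bcl2l11 and Bmf rise when cells lose contact with the matrix.

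The dissection and the arrays set some limits on what follows. Of 9 luminal marker probes, 9 were above stroma in terminal end buds and 9 in ducts. The mean log2 ratio of these luminal markers lay between 3.49 and 4.35 on terminal end bud arrays and between 2.98 and 3.71 on duct arrays. Between the structures 4 of the 9 luminal markers were higher in terminal end buds than in ducts (from Krt19 by 1.69 to Cldn4 by 0.63, with Krt8 and Cldn3 between), the direction of Bak1, Bad and Bid below, and 0 were lower by limma (also 0 at an unadjusted p under 0.05). Of 9 mitosis markers, 6 were higher in terminal end buds than in ducts and 0 lower by limma (also 0 at an unadjusted p under 0.05), with array means of 0.95 to 1.85 in terminal end buds and of -0.18 to 0.75 in ducts. Of 8 white adipocyte markers 6 were lower, with array means of -2.12 to -1.26 in terminal end buds and of -0.79 to -0.47 in ducts, and of 8 endothelial markers 7 were lower, at -1.44 to -1.06 in terminal end buds and at -0.66 to -0.19 in ducts. Of 9 basal markers 1 was higher, 4 were lower and 4 did not pass. Myh11, a smooth muscle myosin, stood at 0.050 in terminal end buds, against 2.21 in ducts. Actg2, the 1 higher marker, went the other way, at 2.66 in terminal end buds against 0.72 in ducts. Of 8 fibroblast markers 1 was higher in terminal end buds than in ducts (Fn1, 0.50) and 1 was lower (Col3a1, -1.22). Against stroma 3 of these 8 were higher in terminal end buds and 5 in ducts. Their array means were 0.25 to 0.89 in terminal end buds and 0.37 to 1.39 in ducts. With a common median absolute deviation 0 luminal markers were higher and 1 was lower, and after quantile normalization 1 white adipocyte marker was lower. The 5 macrophage and lymphocyte markers averaged between -0.24 and 0.11 on every array, but single markers went either way. Between the structures 1 was higher in terminal end buds (Cd52, by 0.49) and 0 were lower by limma (1 at an unadjusted p under 0.05). Against stroma 1 was higher and 2 were lower in terminal end buds. The part of these shifts in the family's values was not tested. A difference in the number of cells of a type and a difference in RNA per cell cannot be told apart in such tissue.

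**Figure D1:**
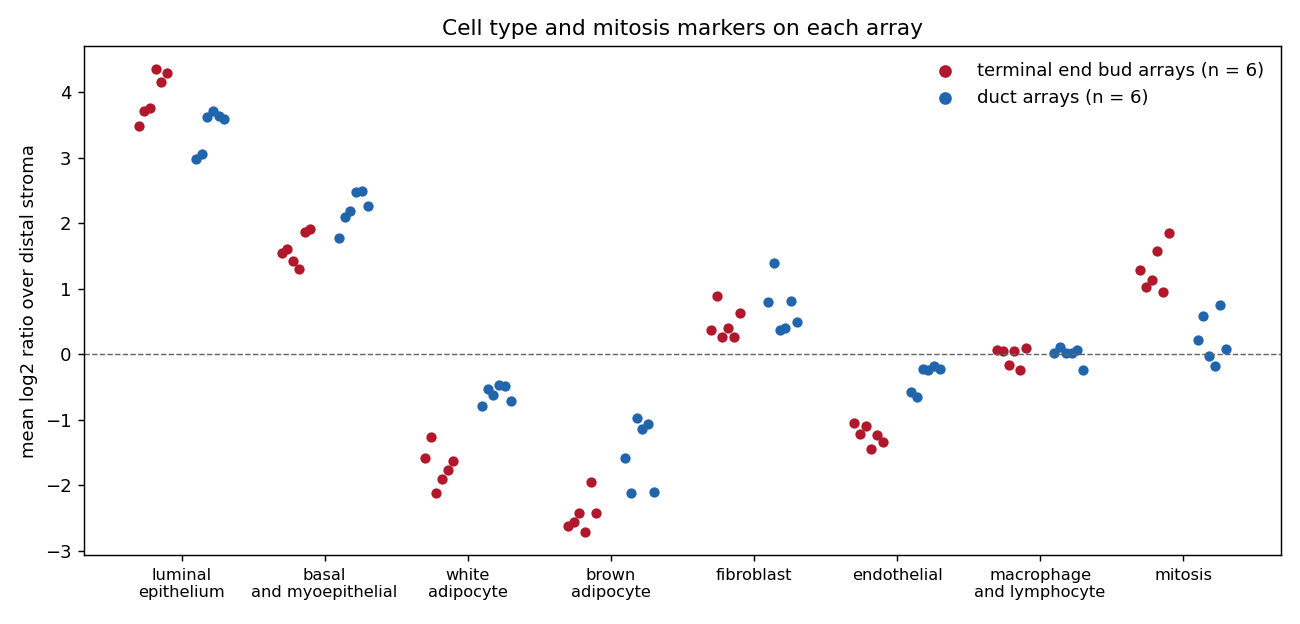
Mean log2 ratio over distal stroma (vertical axis) of 8 lists of marker genes (horizontal axis); each point is 1 array, red for the 6 terminal end bud arrays and blue for the 6 duct arrays, and the dashed line is the level of stroma. Mitosis markers sit higher, and white adipocyte and endothelial markers lower, on terminal end bud arrays than on duct arrays. For brown adipocyte markers the red and blue points overlap.

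One array of each structure stood apart on a small number of probes. Replicates are numbered here in order of slide number within each structure. Terminal end bud replicate 3 is slide 197 and duct replicate 4 is slide 199. Terminal end bud replicate 3 lay more than 1.5 log2 units below the other 5 terminal end bud arrays on 189 of 17589 probes, and duct replicate 4 did so among the duct arrays on 89, against 0 to 7 probes on the other 10 arrays. The Bcl2l1 probe is among those of terminal end bud replicate 3, and results that rest on this array are given with and without it. Whether each array had animals of its own is not in the labels, and p-values therefore cover the spread among these arrays alone, possibly a technical one. Stroma was always the second channel and counts as 1 control sample without a spread. The labels show no dye swap, so a dye bias of a single probe cannot be told apart from a difference from stroma; it cancels between terminal end buds and ducts only if it was alike on all arrays.

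Between the structures, 3 of the 6 pro-death genes measured passed the test and 0 of the 3 pro-survival genes; whether the sides of the family differ was not tested. Bak1, Bad and Bid were higher in terminal end buds than in ducts, by 1.77-fold, 1.40-fold and 1.40-fold. These 3 of the 9 members passed an adjusted p of 0.05 in the higher direction, and 8.32% of all probes did so. Because the members were chosen with earlier results of these data known, their shares beside those of all probes are descriptions only. In the lower direction 0 of 9 passed by limma (1, Mcl1, at an unadjusted p under 0.05), against 10.4% of all probes. The median difference was 0.39 over the 6 pro-death probes, -0.25 over the 3 pro-survival probes and 0.00033 over all probes. For the same 3 genes the 6 terminal end bud arrays and the 6 duct arrays did not overlap, which held for 10.2% of all probes.

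**Figure D2:**
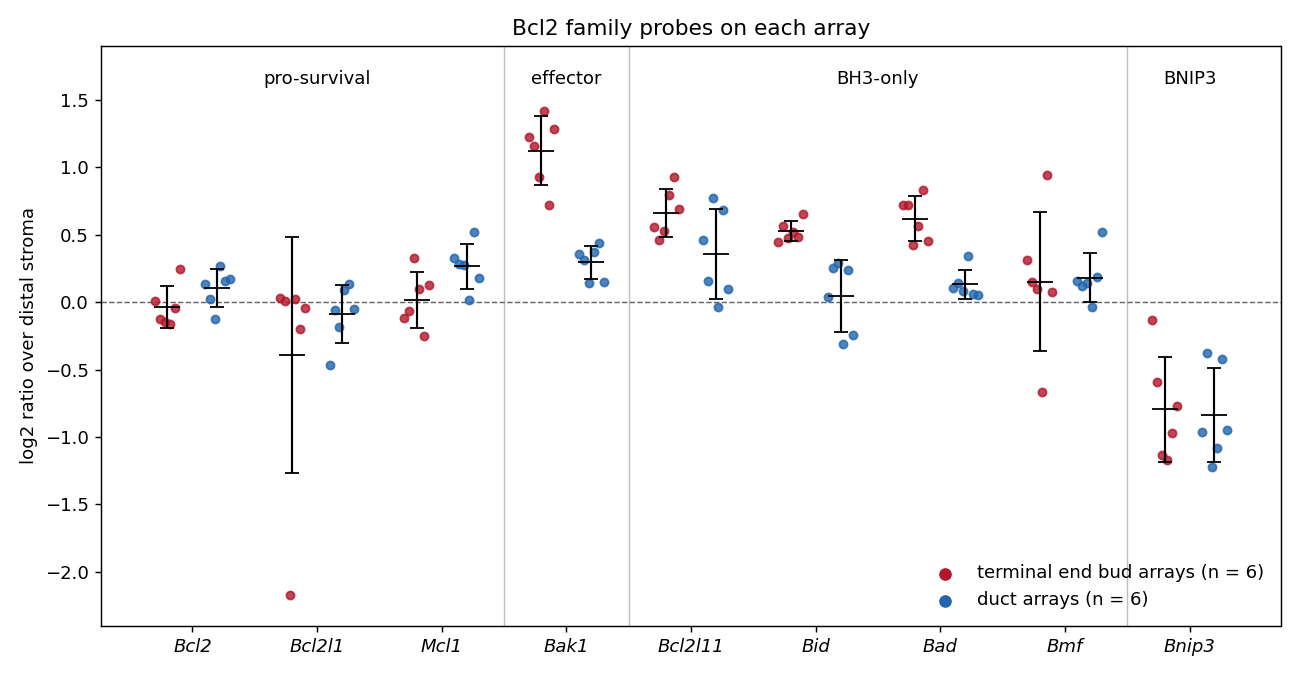
Log2 ratio over distal stroma (vertical axis) of the 9 family probes, grouped by role; points are single arrays, red for 6 terminal end bud arrays and blue for 6 duct arrays, and black bars give the mean and SD. The red and blue points separate for Bak1, Bid and Bad, and 1 terminal end bud array lies at -2.17 for Bcl2l1.

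Against stroma, 4 of the 9 members were higher in terminal end buds (Bak1, Bcl2l11, Bad and Bid), compared with 23.2% of all probes. Bnip3 was lower, 1 of 9 compared with 20.4% of all probes. In ducts 3 members were higher than stroma (Bcl2l11, Bak1 and Mcl1), compared with 16.0% of all probes, and Bnip3 was again lower, 1 of 9 compared with 12.2%. A share of 1 in 9 lies near or under those of all probes. The median over the 6 pro-death probes was 0.57 in terminal end buds and 0.16 in ducts. Over the 3 pro-survival probes it was -0.037 in terminal end buds and 0.10 in ducts, and over all probes 0.015 in both. The 2 comparisons share the stromal channel and are therefore given side by side only.

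Among the pro-survival genes, none differed from stroma in terminal end buds (0 of 3 by limma, and 0 at an unadjusted p under 0.05). Of all probes 23.2% were higher and 20.4% lower there, and with 3 probes the count is no result about these genes. Bcl2, the founding member and a block on apoptosis at mitochondria, had a lowest, median and highest log2 ratio of -0.16, -0.085 and 0.25 in terminal end buds, against -0.13, 0.15 and 0.27 in ducts. These ranges overlapped and included the level of stroma. The difference of terminal end bud minus duct was -0.14 (SE 0.091, 95% interval -0.34 to 0.053, adjusted p = 0.340), so that a difference beyond 0.34 in size lay outside the interval. Bcl2 never reached a ratio of 0.5 on any array.

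Mcl1, a short-lived pro-survival protein needed by mammary epithelium, was the pro-survival gene that differed from stroma in ducts. Its lowest, median and highest log2 ratios were -0.25, 0.014 and 0.33 in terminal end buds, against 0.013, 0.28 and 0.52 in ducts. All 6 duct arrays lay above stroma but 3 of the 6 terminal end bud arrays did not, and the groups overlapped. The duct mean was 0.27 above stroma (SE 0.076, adjusted p = 0.0172), a call that was lost without duct replicate 5 (0.22, adjusted p = 0.0697). Between the structures Mcl1 stood at -0.25 (SE 0.11, 95% interval -0.48 to -0.017, adjusted p = 0.141). Without terminal end bud replicate 3 the difference was -0.31 and passed (adjusted p = 0.0482), as it did with array weights (-0.30, adjusted p = 0.0479).

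Bcl2l1 encodes Bcl-xL, the pro-survival member that dominates in many epithelia, and a shorter pro-death splice form; the sources used here do not say which form the probe reports. The lowest, median and highest log2 ratios were -2.17, -0.019 and 0.032 in terminal end buds, against -0.47, -0.054 and 0.14 in ducts. The value of -2.17 came from terminal end bud replicate 3 and the next lowest of that group was -0.20. The mean difference of terminal end bud minus duct was -0.30 (SE 0.32, 95% interval -0.99 to 0.38, adjusted p = 0.585). Without replicate 3 it was 0.052 (adjusted p = 0.803), and the mean ratio of terminal end buds over stroma was -0.037 in place of -0.39. This interval is the widest of the 9 members.

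Bak1, which forms the pore in the outer mitochondrial membrane together with or in place of Bax, showed the largest difference of the 9 between the structures. Its lowest, median and highest log2 ratios were 0.72, 1.19 and 1.42 in terminal end buds, against 0.14, 0.33 and 0.44 in ducts. Every terminal end bud array lay above every duct array, and all 12 lay above stroma. The mean was 1.12 ± 0.26 in terminal end buds and 0.30 ± 0.12 in ducts (SD, n = 6 each), a difference of 0.83 (SE 0.11, 95% interval 0.58 to 1.07, adjusted p = 0.000191). The difference exceeded that of 98.4% of all probes. Terminal end buds stood 2.18-fold above stroma (adjusted p = 4.92e-08) and ducts 1.23-fold (adjusted p = 0.0127). The log2 difference of terminal end bud minus duct was 0.86 on early slides (numbers up to 193, 2 arrays a group, adjusted p = 0.0229). On late slides (numbers from 196, 4 arrays a group) it was 0.81 (adjusted p = 0.00984). The duct call against stroma passed on neither alone (adjusted p = 0.0597 on early and 0.117 on late slides).

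**Figure D3:**
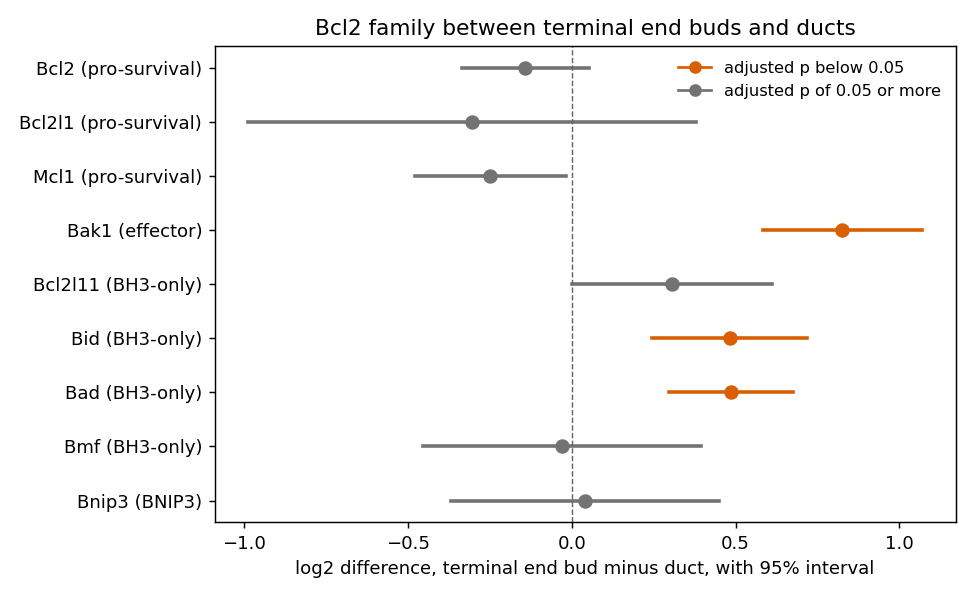
Difference of terminal end bud minus duct in log2 ratio (horizontal axis) for each of the 9 family members (vertical axis, with role in parentheses); points are the fitted differences and lines their unadjusted 95% intervals. Orange marks the 3 members with an adjusted p below 0.05, Bak1, Bid and Bad; the Mcl1 and Bcl2l11 intervals also leave out 0, but their adjusted p-values were 0.141 and 0.171.

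Of the 4 BH3-only genes, 2 passed as higher in terminal end buds than in ducts, compared with 8.32% of all probes. Bad, which binds the pro-survival proteins when survival signalling and its phosphorylation cease, had a lowest, median and highest log2 ratio of 0.42, 0.64 and 0.83 in terminal end buds, against 0.055, 0.095 and 0.34 in ducts. The groups did not overlap, although duct replicate 4 at 0.34 came close to the lowest terminal end bud array. The difference was 0.49 (SE 0.088, 95% interval 0.30 to 0.68, adjusted p = 0.00143), and it was 0.60 on early and 0.43 on late slides alone (adjusted p = 0.0457 and 0.0409). Bad was higher than stroma in terminal end buds by 0.62 (adjusted p = 1.52e-06), while the duct ratio of 0.13 did not pass (adjusted p = 0.138).

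Bid links death receptors to mitochondria, since caspase 8 cuts it into its active form. It had the tightest terminal end bud values of the family, with a lowest, median and highest log2 ratio of 0.45, 0.50 and 0.66 in terminal end buds, against -0.31, 0.14 and 0.29 in ducts. The SD over arrays was 0.076 in terminal end buds and 0.26 in ducts (n = 6 each). Duct arrays thus lay on both sides of stroma and below all terminal end bud arrays. The difference was 0.48 (SE 0.11, 95% interval 0.24 to 0.72, adjusted p = 0.00699), with 0.36 on early slides alone, where the call was lost (adjusted p = 0.218), and 0.54 on late slides (adjusted p = 0.0409). Bid was 0.53 above stroma in terminal end buds (adjusted p = 6.36e-05) and 0.044 in ducts (adjusted p = 0.731).

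Bcl2l11, also called Bim, is the BH3-only gene tied most closely to clearing of the lumen. It had a lowest, median and highest log2 ratio of 0.46, 0.62 and 0.93 in terminal end buds, against -0.035, 0.31 and 0.77 in ducts. The groups overlapped, with 2 terminal end bud arrays above every duct array. It was above stroma by 0.66 in terminal end buds (SE 0.10, adjusted p = 7.75e-05), and its duct mean of 0.36 (SE 0.10, adjusted p = 0.0163) lost the call without duct replicate 3 (0.27, adjusted p = 0.0643) or duct replicate 5 (0.29, adjusted p = 0.0660). The difference between the structures, 0.31 (SE 0.14, 95% interval 0.00096 to 0.61), did not pass (adjusted p = 0.171). After quantile normalization between arrays it was 0.12.

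Bmf, a BH3-only protein held on the actin cytoskeleton until cells detach, did not differ in any comparison and was the most scattered of the 4 BH3-only genes in terminal end buds. Its lowest, median and highest log2 ratios were -0.67, 0.12 and 0.95 in terminal end buds, against -0.037, 0.15 and 0.52 in ducts. Both extremes were terminal end bud arrays, replicates 4 and 5. The difference was -0.030 (SE 0.20, 95% interval -0.45 to 0.40, adjusted p = 0.945), so differences of up to 0.40 either way lay within its interval. Without replicate 4 the terminal end bud mean was 0.31 above stroma and passed (adjusted p = 0.0416), and without replicate 5 it was -0.0078.

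Bnip3, an atypical member on the mitochondrial surface that recruits the machinery of mitophagy and is a known target of the hypoxia factor Hif1a, was lower than stroma in both structures. Its lowest, median and highest log2 ratios were -1.17, -0.87 and -0.14 in terminal end buds, against -1.22, -0.96 and -0.38 in ducts. All 12 arrays lay below stroma and the groups overlapped almost fully. The means were -0.80 ± 0.39 in terminal end buds and -0.84 ± 0.35 in ducts (SD, n = 6 each; adjusted p = 0.000208 and 0.000334 against stroma), and the difference was 0.041 (SE 0.19, 95% interval -0.37 to 0.45, adjusted p = 0.920). On early slides alone neither mean passed, at -0.36 (adjusted p = 0.182) in terminal end buds and -0.67 (adjusted p = 0.0521) in ducts. Brown adipocyte markers were also below stroma, 8 of 8 in terminal end buds and 7 of 8 in ducts, with array means of -2.72 to -1.95 in terminal end buds and of -2.12 to -0.98 in ducts. Their part in the Bnip3 ratio was not tested.

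The promoters of the 3 genes that separated the structures are shown together with that of Bnip3, which did not. Each of the 3 was higher in terminal end buds, and Bnip3 carries a known hypoxia element. Whether the 3 genes vary together was not tested. Each run is the 250 bases before the RefSeq start in build GRCm38.p6, 5′ to 3′ on the gene's strand; for Bad the first of its annotated starts is used. Capitals mark the GC box GGGCGG, a site of the Sp1 family, and the core ACGTG of the hypoxia response element, each on either strand and overlaps merged.
Bak1 (chr17:27028628-27028877, minus strand): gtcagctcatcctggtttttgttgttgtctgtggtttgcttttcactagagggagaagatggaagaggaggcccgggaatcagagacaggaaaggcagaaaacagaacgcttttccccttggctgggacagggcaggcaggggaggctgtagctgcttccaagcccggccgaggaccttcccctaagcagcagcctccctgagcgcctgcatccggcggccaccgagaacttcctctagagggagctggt
Bid (chr6:120916825-120917074, minus strand): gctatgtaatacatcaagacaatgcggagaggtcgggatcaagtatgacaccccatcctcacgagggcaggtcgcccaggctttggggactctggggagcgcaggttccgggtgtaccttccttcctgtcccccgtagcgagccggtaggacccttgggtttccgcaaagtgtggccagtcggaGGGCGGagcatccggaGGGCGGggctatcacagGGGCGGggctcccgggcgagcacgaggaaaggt
Bad (chr19:6941611-6941860, plus strand): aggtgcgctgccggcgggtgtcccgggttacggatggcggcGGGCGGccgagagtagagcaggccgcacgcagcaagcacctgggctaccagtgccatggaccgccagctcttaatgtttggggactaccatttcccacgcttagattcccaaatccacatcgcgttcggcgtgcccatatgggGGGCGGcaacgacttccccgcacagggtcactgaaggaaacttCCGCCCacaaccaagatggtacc
Bnip3 (chr7:138909507-138909756, minus strand): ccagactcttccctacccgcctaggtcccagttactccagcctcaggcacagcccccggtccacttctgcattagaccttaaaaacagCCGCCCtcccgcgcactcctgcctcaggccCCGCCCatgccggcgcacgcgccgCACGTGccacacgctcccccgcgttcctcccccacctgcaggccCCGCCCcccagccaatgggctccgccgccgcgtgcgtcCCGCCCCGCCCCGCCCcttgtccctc
Only the GC box and ACGTG were searched, and likeness of the windows beyond these motifs was not measured. The Bid window held 3 GC boxes, that of Bad 3 and that of Bnip3 6, while the Bak1 window held neither motif. The window of the second annotated Bad start, not printed, held 0 GC boxes. ACGTG occurred in the Bnip3 window only among these 4, within CACGTG, which reads the same on both strands. Of 32851 promoter windows of this length, 32.7% held a GC box and 16.6% held ACGTG. Among the 16 windows of the family members 8 (50.0%) held a GC box and 2 (12.5%) held ACGTG. These shares were not tested against each other. A match describes the letters and not binding.

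The wider cell death pathway was read from 8 lists of 80 genes, of which 64 had 74 probes. Between the structures 7 of the 74 passed as higher and 10 as lower in terminal end buds, with a median of 0.021. These are 9.5% and 13.5% of the lists' probes, near the 8.32% and 10.4% of all probes, so the counts are no result about the lists. Against stroma 19 probes passed as higher and 22 as lower in terminal end buds, and 16 as higher and 11 as lower in ducts. In terminal end buds this is 25.7% higher and 29.7% lower, against 23.2% and 20.4% of all probes, and in ducts 21.6% higher and 14.9% lower, against 16.0% and 12.2%; no test of these shares was made. Without duct replicate 5 or 6 only 10 were higher in ducts.

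Among the other Bcl2 relatives, Bok, an effector-like protein, was higher in terminal end buds than in ducts by 0.46 (SE 0.098, adjusted p = 0.00426). Bcl2l2, the pro-survival gene of Bcl-w, was lower by 0.61 (log2 difference -0.61, SE 0.13, adjusted p = 0.00397). Bnip3l, the paralog of Bnip3 with a like part in mitophagy, was also lower (-0.595, SE 0.075, adjusted p = 0.000103). In terminal end buds it stood at -0.70 against stroma and in ducts at -0.10 (adjusted p = 0.172 in ducts). Bik, a BH3-only gene, was above stroma in both, at 0.77 in terminal end buds and 0.94 in ducts (adjusted p = 0.000113 and 5.69e-05). Of the 10 probes for other pro-death or atypical relatives, 1 was higher and 1 lower between the structures, and of the 2 for other pro-survival genes, 0 were higher (0 at an unadjusted p under 0.05 as well) and 1 was lower. Without terminal end bud replicate 3 the atypical list had 2 lower.

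Downstream of mitochondria, Casp9, the caspase that cytochrome c and Apaf1 switch on, was higher in terminal end buds than in ducts by 0.498 (SE 0.12, adjusted p = 0.00951). Cycs, cytochrome c itself, was lower (-1.15, SE 0.26, adjusted p = 0.00699), and stood at -1.75 in terminal end buds and -0.60 in ducts against stroma. Cycs is also part of the respiratory chain. Of 8 brown adipocyte markers 5 were lower in terminal end buds than in ducts; this count was 3 without terminal end bud replicate 4 or without duct replicate 1, 3, 4 or 5, and 0 after quantile normalization or with a common median absolute deviation. Their part in the Cycs difference was not tested. The other 8 of the 10 probes for apoptosome and caspases did not pass between the structures, both Apaf1 probes among them. Casp2 was above stroma in both, at 0.76 in terminal end buds and 0.63 in ducts.

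Among the caspase inhibitors and the death receptor genes, the probes that passed as lower belonged to Birc2, Birc3 and Cflar, each with another probe that did not pass. Of 11 inhibitor probes 2 were lower, 1 each for the ubiquitin ligases Birc2 (-0.54, SE 0.11) and Birc3 (-0.34, SE 0.085), and the second probe of each did not pass (-0.26 and 0.21). Birc5, survivin, which also serves chromosome segregation in mitosis, was higher by 1.53 (SE 0.23). Cflar, the decoy that blocks caspase 8 at death receptors, had 3 probes that disagreed, at -0.997 (SE 0.092), -0.44 (SE 0.088) and 0.057 (SE 0.073), of which the first 2 passed. They were the only 2 of 11 probes for death receptors and adaptors that passed between the structures, and 0 were higher by limma (1 at an unadjusted p under 0.05). Without terminal end bud replicate 1 the inhibitor list had 2 higher.

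Of 13 probes for regulators of the BH3-only genes, 2 were higher and 1 lower between the structures. Dynll1, a dynein light chain that tethers Bcl2l11, was higher by 0.66 (SE 0.11, adjusted p = 0.00071), while Dynll2 did not pass (0.27, adjusted p = 0.166). Ywhaz, a 14-3-3 protein of the kind that holds phosphorylated Bad, was higher by 0.36 (SE 0.093, adjusted p = 0.0142). After quantile normalization, and with a common median absolute deviation, 1 of this list was higher. Hif1a was lower (-0.68, SE 0.13, adjusted p = 0.00261), at -0.35 in terminal end buds and 0.33 in ducts against stroma. Without terminal end bud replicate 3 the list had 2 lower. Of 8 probes of the outer mitochondrial membrane, the channel genes Vdac2 (0.59) and Vdac1 (0.44) were higher and 1 of 2 Fundc1 probes, a mitophagy receptor, was lower (-0.501, against 0.11 for the other). Without duct replicate 2 the list had 2 lower. In the p53 list of 9 probes, 0 were higher by limma (1 at an unadjusted p under 0.05) and Ccng1, a p53 target, was lower (-1.04, SE 0.13). Without terminal end bud replicate 4 or duct replicate 5 the list had 2 lower. Perp, a p53 target that also serves desmosomes, was above stroma at 2.19 in terminal end buds and 2.20 in ducts.

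**Figure D4:**
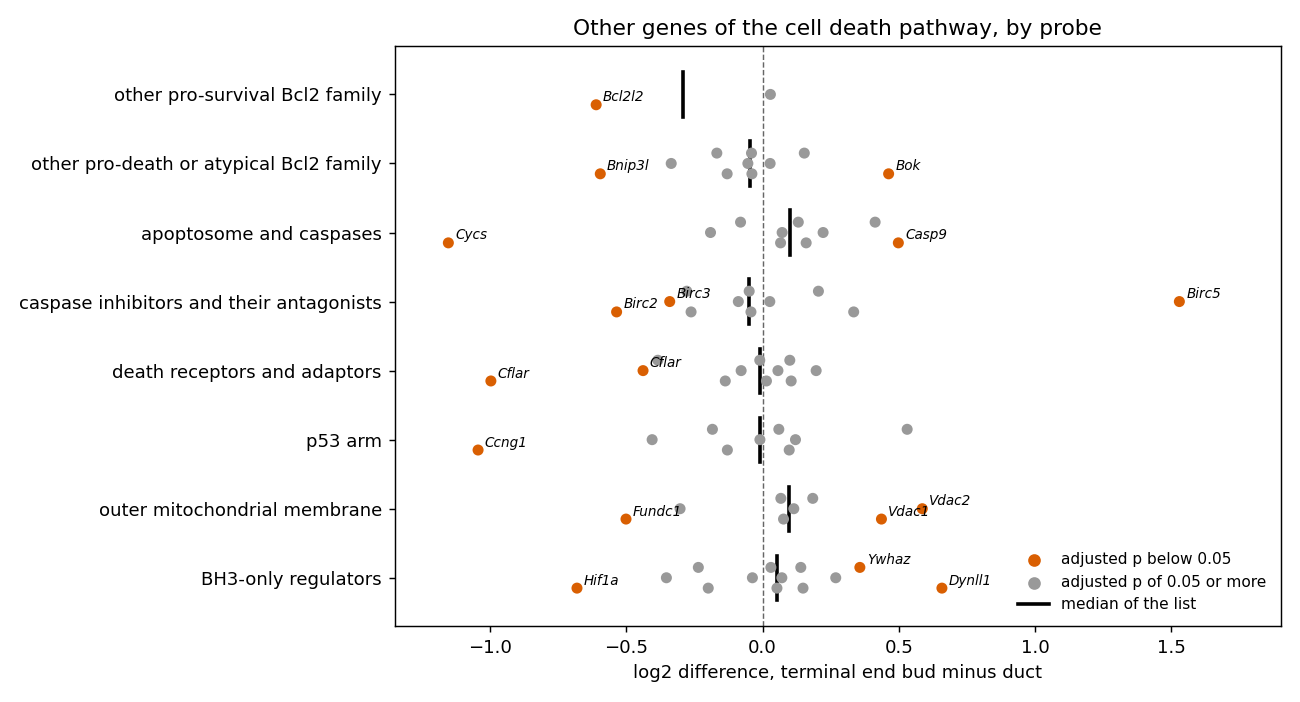
Log2 difference of terminal end bud minus duct (horizontal axis) for 74 probes in 8 lists of cell death genes (rows); each point is 1 probe, orange where the adjusted p is below 0.05 and named, black ticks are list medians, and heights within a row only keep points apart. Called probes lie on both sides of 0, from -1.15 for Cycs to 1.53 for Birc5.

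The genes whose values most resembled those of 2 members across the 12 arrays were searched among 14040 named probes, as a description only. For Bak1 they were Ngfr, Cdc20 and Ptbp1. Since the structures did not overlap in Bak1, the likeness is given within each: Pearson's r was 0.81, 0.80 and 0.89 over the 6 terminal end bud arrays, and 0.62, 0.43 and 0.24 over the 6 duct arrays. Cdc20, an activator of the anaphase ligase, is one of the mitosis markers. For Bcl2l1 the nearest were 4931431B13Rik, Camp and Armc2, with r of 0.98, 0.98 and 0.98 and Spearman's rho of 0.83, 0.73 and 0.74. Leaving out the 2 arrays farthest from the Bcl2l1 median, terminal end bud replicate 3 and duct replicate 1, gave r of 0.76, 0.52 and 0.51, so the likeness rested largely on those arrays. The points share their stromal channel and normalization.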

How the data were processed

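RNA of 6 terminal end bud samples and 6 duct samples was compared with distal stroma on 12 arrays with 2 colours. The authors deposited 1 normalized ratio per probe and array, taken here as log2 of Cy5 (epithelium) over Cy3 (stroma) after the dyes of the labels; scanner, background correction, normalization and log base: not given in the sources used here. Array medians lay between 0.01 and 0.023, and values were used as deposited. The SD over probes was wider on terminal end bud arrays (0.54 to 0.64) than on duct arrays (0.38 to 0.48). Precision is limited by the number of arrays. Of 17589 probes 129 had 1 missing value, and all were tested, each group needing at least 4 values. Names came from the platform annotation, in which 14136 probes had 1 symbol, 13 several and 3440 none here.

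One fit of 2 group means with limma 3.58.1 in R 4.3.3 (lmFit, eBayes) gave each mean against 0 and their difference, two-sided, with Benjamini-Hochberg adjustment over all probes and a threshold of 0.05. On simulated arrays with 200 of 17589 probes raised, it recovered 56.7% of differences of 0.5 between the structures and 86.6% of differences of 1, with 5 false calls. The data had more calls, 1463 higher and 1832 lower, so these shares do not give the recovery in the data.

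The members and the gene lists were chosen with earlier results of these data known. All members are named; of each other list, at most the 2 highest and 2 lowest probes past the threshold, with further probes of those genes, genes of the mechanism described and markers added after their values were seen. Likeness was searched for the pro-survival and the pro-death member with the largest difference. Promoters of 10 of 10 members were found in RefSeq windows. Alternatives covered scaling, variance, weights, filters, slides and each array left out.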

Additional observations from a re-analysis of the deposited data

Results flagged for a closer look

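The Bcl2l1 value of terminal end bud replicate 3, -2.17, was far from the other 5 terminal end bud arrays, of which the nearest was at -0.20, a gap of 0.894 of the group's whole range. The Bad value of duct replicate 4, 0.34, was far from the other duct arrays, of which the nearest was at 0.14, a gap of 0.693 of the range. These were 2 of 18 groups of 6 arrays examined, and chance alone gives about 1 in 20.

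The difference between terminal end buds and ducts in their ratio over stroma, tested by limma, passed for Bak1 (0.83), Bid (0.48) and Bad (0.49). In each of these genes every terminal end bud array was higher than every duct array. Of all probes 10.2% had no overlap of the groups, in either direction, and 8.32% passed as higher in terminal end buds.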

How the results depend on the processing

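The 9 members in 3 comparisons gave 618 values under 24 other settings, 23 for each comparison, since the slide block was fitted for the difference only and each structure's arrays alone for stroma only: 585 kept direction and call, 12 lost the call, 3 gained it and 18 changed sign. The cause was not tested, except that slide subsets hold fewer arrays. Many of the kept values could not change direction. Leaving out a duct array left the terminal end bud ratio over stroma as it was, and the reverse. The filters, other variance settings of eBayes, the slide block and a term for early against late slides also left the values themselves unchanged. The 3 members higher between the structures stayed at 3 under the 23 settings run for that difference except early slides alone, which ended the call of Bid. Their differences were smaller after scaling of the arrays. After quantile normalization they were 0.61 for Bak1, 0.39 for Bad and 0.40 for Bid. With a common median absolute deviation they were 0.69 for Bak1, 0.44 for Bad and 0.43 for Bid. Array weights gave 1 member lower between the structures, and 1993 of all 17589 probes. Leaving out 1 array gave 0 to 1 lower there (1 without terminal end bud replicate 3) and 1 to 3 members higher in ducts than stroma (1 without duct replicate 5). Over all 17589 probes, leaving out 1 array gave 1543 to 1877 lower between the structures and 2292 to 2883 higher in ducts than stroma. Fits within early and late slides were chosen after seeing the data. On early slides (2 arrays a group) 0 members were lower than stroma in terminal end buds, 0 higher and 0 lower in ducts, by limma. On those slides limma called 2367 probes higher and 2296 lower against stroma in terminal end buds, 1091 higher and 1089 lower in ducts, and 380 higher and 643 lower between the structures. On late slides (4 arrays a group) 0 members were higher in ducts than stroma, and 2237 of all 17589 probes were. With 9 members, this 0 is no result about the family.

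None of the values that changed sign had passed the threshold; the largest in size before the change was Bcl2l1, at -0.39 against stroma in terminal end buds and -0.30 between the structures. Between the structures, Bnip3 ran from -0.091 to 0.13, Bmf from -0.19 to 0.13 and Bcl2l1 from -0.39 to 0.052 with 1 array left out. Bnip3 was at -0.093 on late slides, and Bmf at 0.091 and Bcl2l1 at 0.28 on early slides. Against stroma, with 1 array left out, terminal end bud Mcl1 ran from -0.044 to 0.073, Bmf from -0.0078 to 0.31 and duct Bid from -0.0052 to 0.12. Terminal end bud Mcl1 was at -0.000297 with array weights and -0.093 on early slides, Bcl2l1 was at 0.020 on early slides, and duct Bid was at -0.0078 on late slides. The labels give no replicate numbers, so the one paired fit took neighbouring slide numbers as a block. This block, each pair holding 1 array of either structure, left Bak1 (adjusted p = 0.00158), Bad (0.00669) and Bid (0.0199) past the threshold. No member had several probes, so averaging probes gave no value. Bcl2 dropped out of the filter on size.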
